A study of Saccharomyces cerevisiae with 6 samples.

Results

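The genes described here encode the mating machinery that both haploid cell types of Saccharomyces cerevisiae share. They are 43 genes of signalling, adaptation, polarity, cell and nuclear fusion, pheromone maturation and mating-type switching, chosen by name in the annotation of the chip, out of 5726 genes measured. Each of the 43 names led to its own probe set (a group of probes read as 1 value). None of these probe sets lists several names or belongs to the types that can match several genes. Pheromone receptors and pheromone genes are not among them.

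Yeast mates as a cells and α cells. A pheromone bound by its receptor releases the βγ part of a heterotrimeric G protein, which passes the signal through a chain of protein kinases to the transcription factor Ste12. Ste12 then switches on genes for adhesion, cell fusion and nuclear fusion, while Far1 arrests the cell cycle and polarity proteins direct growth towards the partner. Receptors, pheromones and their export differ between a and α cells, but the steps in between are the same in both, and in diploids a repressor made of a1 and α2 shuts off several of their genes.

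Expression was read on 6 Affymetrix Yeast 2.0 arrays. All cells carried a multi-copy LEU2 plasmid in a strain the study calls wild type and grew at 30°C in medium without leucine until an optical density of 0.7. The plasmid was empty in the 4 control samples (labelled WT, replicates 1 to 4, cell size Normal) and carried TEF1, the gene of the translation elongation factor eEF1A, behind the strong GPD promoter in the 2 eEF1A samples (replicates 2 and 3, cell size Enlarged). The methods speak of biological triplicates, so their group sizes differ from those of the labels. The mating type of the strain is not given in the sources used here. All values are log2 expression values, and a difference of 1 is a doubling. A gene rose or fell where its Benjamini-Hochberg adjusted p from limma, taken over all 5726 genes, was under 0.05.

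The arrays of a group were alike (0.998 to 0.999 was the correlation for pairs of controls and 0.996 for the pair of eEF1A arrays, against 0.975 to 0.977 for pairs across groups). The probe set shared by TEF1 and TEF2 read 14.48 to 14.51 on the control arrays, against 14.51 and 14.49 on the eEF1A arrays. It thus showed no rise on these arrays (log2 difference 0.004, adjusted p from limma 0.955). Its values were close to the highest mean of any gene (14.67), and whether the signal was at its ceiling was not tested. The study reported a rise in eEF1A protein from western blots, a measure that these RNA values do not cover. Probe sets of Schizosaccharomyces pombe, which was not hybridised, show the background, and 95 percent of them had means under 5.18. Markers of the 2 mating types moved in opposite directions. The 7 a-cell markers (STE2, STE6, MFA1, MFA2, BAR1, AGA2 and ASG7) all fell and their mean went from 11.19 to 11.25 on the control arrays to 6.37 and 6.60 on the eEF1A arrays. The 4 α-cell markers (STE3, MF(ALPHA)1, MF(ALPHA)2 and SAG1) all rose, with a mean of 5.97 to 6.13 on the control arrays, against 12.38 and 12.10 on the eEF1A arrays. In eEF1A cells the a-cell markers still read 5.56 or more, above the background level. In control cells STE3, MF(ALPHA)2 and SAG1 read 5.87 or more, also above it, while MF(ALPHA)1 was under it. Mating type and eEF1A therefore cannot be told apart in any difference given below. Nor can fewer cells of a type be told apart from less RNA per cell in a culture.

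Against this background the shared machinery changed little. Of the 43 genes, 10 rose and 6 fell, and 27 did not pass the test. Over all genes 27.5% rose and 15.4% fell, so that the shares among the members (23.3% and 14.0%) were near those of the whole chip. The largest difference of any member was 0.75 on the log2 scale (1.68-fold), whereas the smallest among the markers of a or α cells was 2.26 (4.79-fold). The median difference of the members was 0.02, with 0.04 over all genes, and the median size of a difference without its sign was 0.15, with 0.16 over all genes. For 4 members the difference passed and was at least 0.5 in size, as it was for 10.1% of all genes. Both eEF1A arrays lay above all controls, or both below them, for 21 members (48.8%), with 57.2% over all genes. The 95% interval of the difference lay within 0.5 on the log2 scale, a change of 1.41-fold, for 36 of the 43 members (83.7%, with 77.2% over all genes), and for 25 of the 27 that did not pass the test. For most of these genes a larger change was thus outside the interval, which covers each gene on its own. The intervals assume the same spread in both groups. Yet the gap between the eEF1A arrays was wider than the whole control range for 26 members (60.5%, with 47.4% over all genes).

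**Figure D1:**
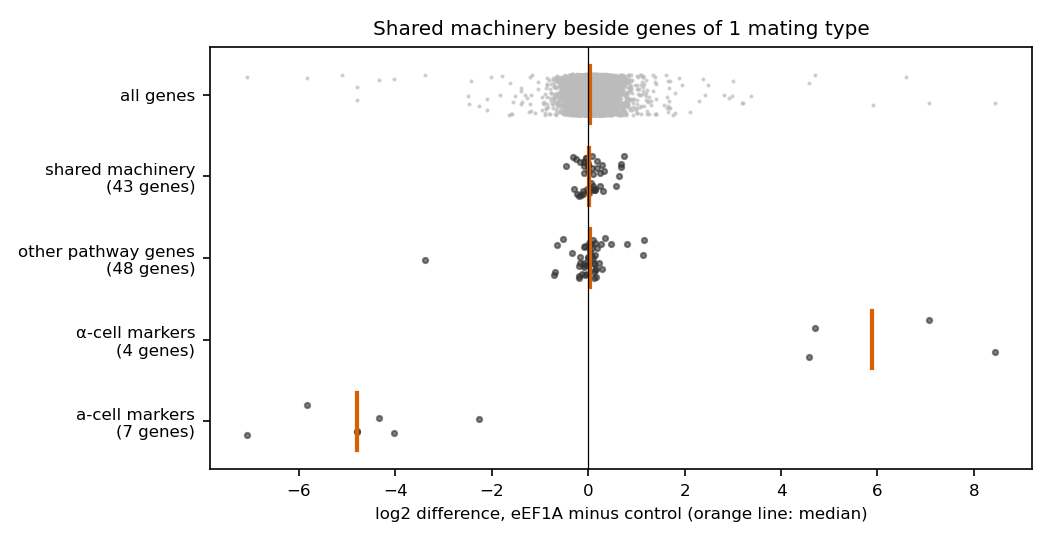
Differences between eEF1A and control cells on the log2 scale (x axis) for all 5726 genes, the 43 shared mating genes, 48 other genes of the pathway and the markers of α and a cells; each point is 1 gene, spread vertically for visibility, and the orange lines are medians. The shared genes lie between -0.46 and 0.75, while the α-cell markers lie at 4.58 or higher and the a-cell markers at -2.26 or lower.

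The number of falls moved with the scaling of the arrays, for the members as for the whole chip. After a further quantile normalisation 8 members rose and 12 fell, where 26.0% of all genes fell, and after centring each array on its median 8 rose and 10 fell, where 25.3% of all genes fell. Individual arrays mattered as well. In the runs without a control array given next, the member counts dropped by a larger proportion than the shares of all genes. The number that rose was 5 without control replicate 1 and 6 without control replicate 2. In these runs 22% and 22.8% of all genes rose, against 27.5% with all arrays. The number that fell was 3 without control replicate 3 and 3 without control replicate 4. In these runs 12.7% and 12% of all genes fell, against 15.4% with all arrays. Without eEF1A replicate 2 the median difference of the members was -0.0056, with -0.0073 over all genes. Without eEF1A replicate 3 it was 0.12, with 0.09 over all genes. With arrays weighted by their fit AGA1, PRM1 and STE13 rose and GPA1 and HO fell, where 18.9% of all genes rose and 9.81% fell. With only the arrays numbered 2 and 3 AGA1, PRM1, FIG1 and PRM6 rose and GPA1 and HO fell. With those arrays 14.9% of all genes rose and 8.05% fell. The other members that passed as reported did not pass in these analyses. At the study's own threshold, a B-statistic (log odds of a change) above 1.5, the only member called was AGA1, which was higher, where 6.08% of all genes were higher and 2.51% lower.

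**Figure D2:**
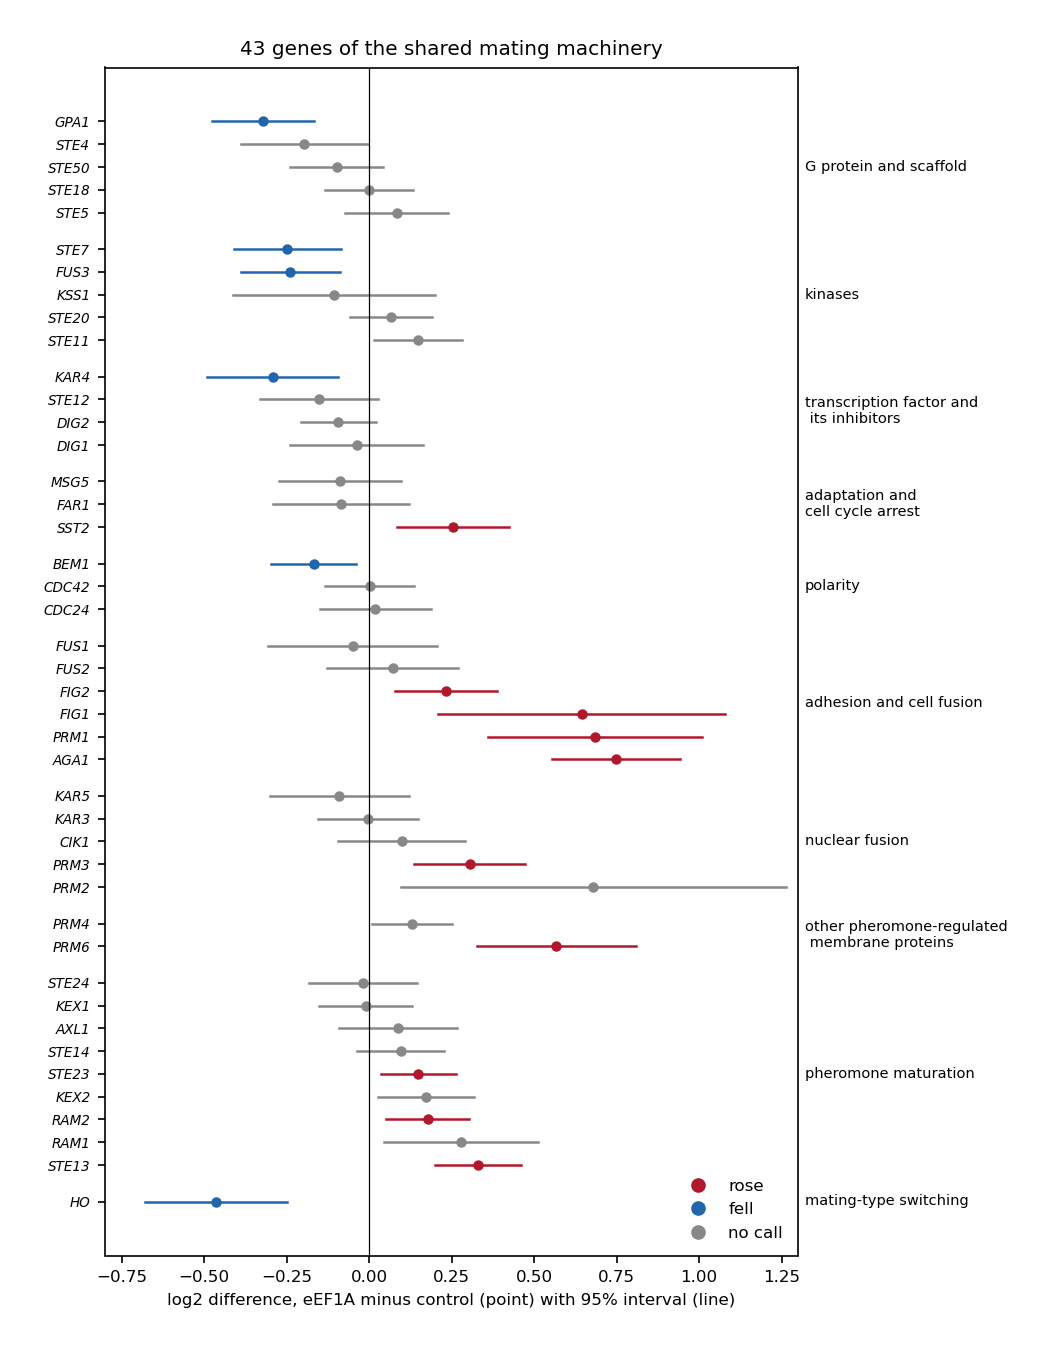
Log2 difference between eEF1A and control cells for each of the 43 genes (points) with its 95% interval (lines), ordered within roles; red genes rose, blue genes fell and grey genes did not pass the test at an adjusted p under 0.05. Most points lie close to 0, with AGA1 highest at 0.75 and HO lowest at -0.46.

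Of the 5 genes of the G protein and scaffold 1 fell and 0 rose, a share of falls (20.0%) near the 15.4% of all genes. GPA1 encodes the Gα subunit, which holds Gβγ inactive until pheromone binds, and lies at chr8:113492-114910 on the minus strand (October 2003 build of the chip's annotation). It read 10.73, 10.81, 10.84 and 10.85 on the control arrays, against 10.58 and 10.39 on the eEF1A arrays. Both eEF1A values lay under the lowest control, and the difference was -0.32 (standard error 0.07, adjusted p = 0.00600). STE4, the Gβ subunit, had a difference of -0.20 (standard error 0.08, adjusted p = 0.0946). It passed as lower after the further quantile normalisation (adjusted p = 0.0356), after median centring (0.0173) and without eEF1A replicate 2 (0.00354). STE18, the Gγ subunit that pairs with Ste4, differed by 0.00, with a 95% interval from -0.13 to 0.13. The scaffold gene STE5, whose protein holds the kinases together, and STE50, the adaptor of the kinase Ste11, had differences of 0.08 and -0.10 and adjusted p values of 0.357 and 0.233. STE50 was lower after quantile normalisation and median centring (adjusted p = 0.00489 and 0.0264).

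Of the 5 kinase genes STE7 and FUS3 fell (40.0%, with 15.4% over all genes) and 0 rose. STE7 encodes the MAP kinase kinase of the pathway. It read 8.21, 8.27, 8.32 and 8.18 on the control arrays, against 8.09 and 7.90 on the eEF1A arrays, so the groups did not overlap. The difference was -0.25 (standard error 0.07, adjusted p = 0.0225). FUS3, the MAP kinase for mating, fell by a like amount, with a difference of -0.24 (standard error 0.06, adjusted p = 0.0188). KSS1, the related MAP kinase that also serves filamentous growth, differed by -0.11, with a wide 95% interval from -0.41 to 0.20, and eEF1A replicates 2 and 3 read 7.16 and 6.70. STE20, the p21-activated kinase at the top of the chain, and STE11, the MAP kinase kinase kinase, had differences of 0.07 and 0.15 and did not pass (adjusted p = 0.360 and 0.0689). STE7 no longer passed when control replicate 2, control replicate 3 or eEF1A replicate 3 was left out (adjusted p = 0.0539, 0.0506 and 0.117), nor FUS3 when control replicate 4 or eEF1A replicate 3 was (0.0501 and 0.0848).

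At the end of the chain KAR4 was lower. Kar4 works with Ste12 on the genes of nuclear fusion and is itself made in response to pheromone. KAR4 read 9.41, 9.45, 9.55 and 9.52 on the control arrays, against 9.34 and 9.04 on the eEF1A arrays, where replicate 2 was only just under the lowest control. The difference was -0.29 (standard error 0.09, adjusted p = 0.0268), and KAR4 no longer passed when control replicate 3, control replicate 4 or eEF1A replicate 3 was left out (adjusted p = 0.0625, 0.0604 and 0.145). STE12 itself differed by -0.15 (standard error 0.08, adjusted p = 0.153). DIG1 and DIG2, whose proteins bind Ste12 and keep it inactive, differed by -0.04 and -0.09 (adjusted p = 0.761 and 0.168). STE12 and DIG2 were lower after quantile normalisation (adjusted p = 0.0435 and 0.0321) and median centring (0.0176 and 0.0427), and STE12 and DIG1 without eEF1A replicate 2 (0.0195 and 0.0441).

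Genes that dampen the response or arrest the cell cycle showed 1 rise among 3 (33.3%, with 27.5% over all genes). SST2 encodes the regulator that speeds GTP hydrolysis by Gpa1 and so ends the signal. It read 9.21, 9.15, 9.34 and 9.20 on the control arrays, against 9.57 and 9.39 on the eEF1A arrays, both above the highest control, with a difference of 0.25 (standard error 0.07, adjusted p = 0.0242). SST2 and GPA1, whose proteins act on each other, thus had differences of opposite sign. Leaving out control replicate 1, 2 or 4 or eEF1A replicate 2 left SST2 short of the test (adjusted p = 0.0599, 0.0586, 0.0576 and 0.131). MSG5, the phosphatase that inactivates Fus3, and FAR1, the cell cycle inhibitor, had differences of -0.09 each (adjusted p = 0.406 and 0.478). FAR1 passed as lower without eEF1A replicate 2 (adjusted p = 0.0118).

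Of the 3 polarity genes BEM1 fell (33.3%, with 15.4% over all genes). Bem1 is a scaffold that ties the GTPase Cdc42 to its exchange factor Cdc24 at the growing tip. BEM1 read 8.51, 8.50, 8.55 and 8.54 on the control arrays, against 8.43 and 8.29 on the eEF1A arrays, all lower but by little. The difference of -0.17 (standard error 0.06, adjusted p = 0.0413) was lost without any of control replicates 1 to 4 (adjusted p = 0.0865, 0.0692, 0.0783 and 0.101) or eEF1A replicate 3 (0.184). CDC42 and CDC24 differed by 0.00 and 0.02, with 95% intervals from -0.13 to 0.14 and from -0.15 to 0.19.

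The largest rises were in genes for adhesion and cell fusion, of which 4 of 6 rose and 0 fell. With so few genes this share was not tested against the 27.5% of all genes. AGA1 encodes the anchor that holds the a-agglutinin Aga2 on the wall of a cells, and α cells can express it as well. Its target lies at chr14:703696-705873 on the plus strand. AGA1 read 9.29, 9.24, 9.40 and 9.34 on the control arrays, against 10.21 and 9.93 on the eEF1A arrays. Both eEF1A arrays were far above the controls, a 1.68-fold rise (log2 difference 0.75, standard error 0.08, adjusted p = 3.17e-04). AGA1 passed in all 18 alternatives. On the same arrays AGA2, the adhesive subunit that Aga1 anchors, had a log2 difference of -4.79 (standard error 0.16).

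PRM1 encodes a membrane protein that helps the plasma membranes of mating cells to merge (chr14:110915-112900, plus strand). It read 5.95, 6.08, 6.13 and 6.28 on the control arrays, against 7.06 and 6.54 on the eEF1A arrays. The groups did not overlap, and PRM1 rose 1.61-fold (log2 difference 0.68, standard error 0.14, adjusted p = 0.00570). FIG1, a membrane protein needed for calcium entry during mating (chr2:316927-317823, plus strand), read 5.36, 5.38, 5.68 and 5.78 on the control arrays, against 6.53 and 5.86 on the eEF1A arrays. Replicate 3 was thus close to the highest control, and all control values were near the background level of 5.18. FIG1 rose 1.56-fold (log2 difference 0.64, standard error 0.19, adjusted p = 0.0255). FIG1 did not pass when control replicate 1, control replicate 2 or eEF1A replicate 2 was left out (adjusted p = 0.0581, 0.0579 and 0.168), and without eEF1A replicate 2 the difference was 0.31.

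FIG2, a wall adhesin of mating cells, rose by 0.23 (standard error 0.07, adjusted p = 0.0234), a call that was lost without control replicate 1 (0.0572) or eEF1A replicate 2 (0.106). Not all fusion genes followed. FUS1, the fusion gene widely used as a reporter of the pathway, is described outside the rule for per-array values because of that use. It read 9.13, 9.21, 9.37 and 9.27 on the control arrays, against 9.40 and 8.99 on the eEF1A arrays. Here the eEF1A arrays fell on either side of the controls, and the difference of -0.05 had a 95% interval from -0.31 to 0.21 (adjusted p = 0.752). FUS2, which acts with the membrane-bending protein Rvs161 in fusion, differed by 0.07 (adjusted p = 0.539).

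**Figure D3:**
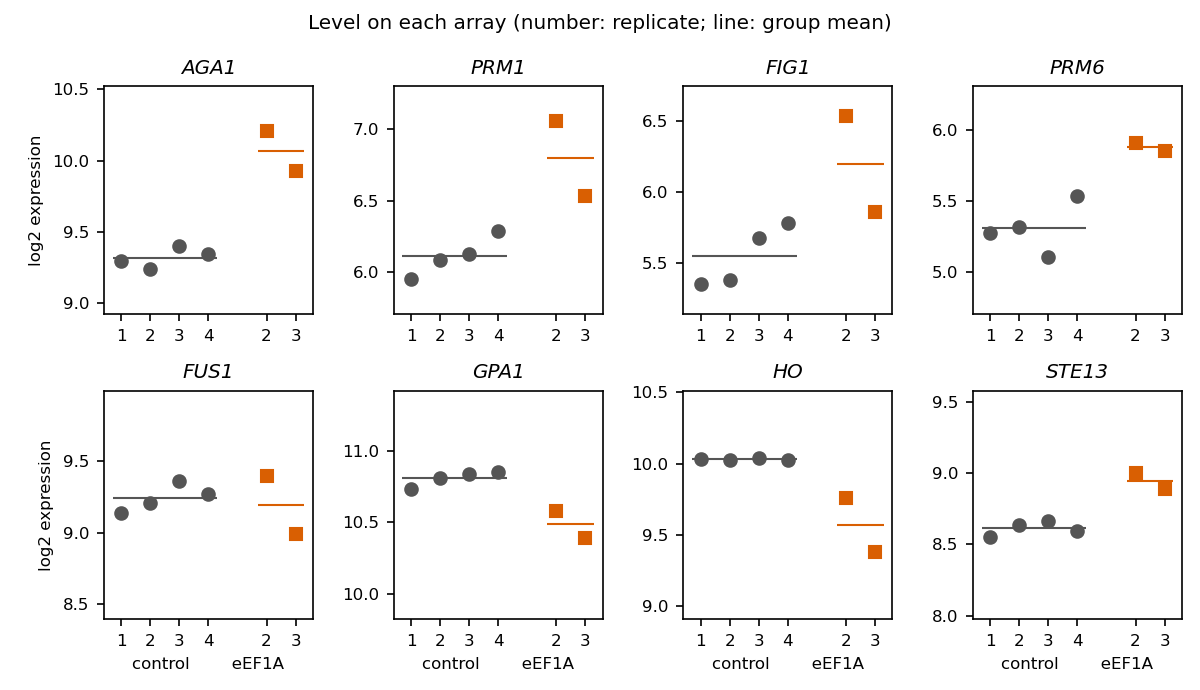
Log2 expression (y axis, each panel spanning 1.6 units) of 8 genes on the 4 control arrays (circles) and the 2 eEF1A arrays (squares), with group means as lines and replicate numbers on the x axis. AGA1, PRM1, FIG1, PRM6 and STE13 are higher and GPA1 and HO lower on both eEF1A arrays, while for FUS1 the eEF1A arrays read 9.40 and 8.99 on either side of the controls.

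PRM6 belongs to a further pair of pheromone-regulated membrane proteins and rose, while its companion on the list, PRM4, did not pass. PRM6 (chr13:180017-181075, minus strand) read 5.28, 5.32, 5.11 and 5.54 on the control arrays, against 5.91 and 5.85 on the eEF1A arrays. Control replicate 3 was under the background level, and the eEF1A arrays agreed closely with each other. The rise was 1.48-fold (log2 difference 0.57, standard error 0.10, adjusted p = 0.00347), but PRM6 did not pass with array weights (adjusted p = 0.0513). PRM4 had a difference of 0.13 (standard error 0.05, adjusted p = 0.0813).

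Among 5 genes of nuclear fusion 1 rose (20.0%, with 27.5% over all genes) and 0 fell. PRM3 encodes a nuclear envelope protein needed for the nuclei to fuse and rose 1.24-fold (log2 difference 0.31, standard error 0.07, adjusted p = 0.0111). Without eEF1A replicate 2 (adjusted p = 0.0589), and after quantile normalisation (0.0842), it did not pass. PRM2, another membrane protein induced by pheromone, read 4.49, 4.54, 4.48 and 4.56 on the control arrays, all under the background level, and 5.77 and 4.62 on the eEF1A arrays. It was therefore above background on 1 array, eEF1A replicate 2, and the difference did not pass (adjusted p = 0.0610). PRM2 passed as higher with limma-trend (adjusted p = 0.0369) and with the replicate number as a block (1.27e-05). KAR3, a kinesin that pulls the nuclei together, and CIK1, which binds and directs it, differed by -0.00 and 0.10 (adjusted p = 0.977 and 0.377). KAR5, a nuclear envelope protein, differed by -0.09 (adjusted p = 0.465). KAR5 passed as lower without eEF1A replicate 2 (adjusted p = 0.0353) and after quantile normalisation (0.0383), as KAR3 did after quantile normalisation (0.0410), and CIK1 passed as higher without eEF1A replicate 3 (0.0181).

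Of 9 pheromone maturation genes 3 rose and 0 fell, a share of rises (33.3%) near the 27.5% of all genes. Both pheromones are cut from precursors, but by different enzymes. On the side of α-factor, STE13 encodes the dipeptidyl aminopeptidase that trims its repeats. STE13 read 8.55, 8.64, 8.66 and 8.60 on the control arrays, against 8.997 and 8.89 on the eEF1A arrays. The groups did not overlap, and the rise was 1.26-fold (log2 difference 0.33, standard error 0.06, adjusted p = 0.00248), with an adjusted p of 0.0501 when only the arrays numbered 2 and 3 were used. KEX2, the protease that makes the initial cut, had a difference of 0.17 (standard error 0.06) and did not pass (adjusted p = 0.0590), although both eEF1A arrays were above all controls. KEX2 passed without control replicate 3 (adjusted p = 0.0383). KEX1, the carboxypeptidase that acts after Kex2, differed by -0.01, with a 95% interval from -0.15 to 0.13.

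On the side of a-factor, which is a farnesylated peptide, RAM2 rose by 0.18 (standard error 0.05, adjusted p = 0.0305) and STE23 by 0.15 (standard error 0.05, adjusted p = 0.0384). Ram2 and Ram1 form the farnesyltransferase, and Ste23 and Axl1 are proteases that cut the precursor at its N-terminus. RAM1 and AXL1 had differences of 0.28 and 0.09 (adjusted p = 0.0567 and 0.390), and RAM1 passed without control replicate 3 (0.0337) or eEF1A replicate 3 (0.0105). STE24, a protease of both ends of the precursor, and STE14, the methyltransferase, differed by -0.02 and 0.10 (adjusted p = 0.851 and 0.214). The RAM2 and STE23 calls did not pass without control replicate 1 (adjusted p = 0.0841 and 0.104), control replicate 2 (0.0691 and 0.0918) or control replicate 4 (0.0887 and 0.0881). RAM2 was also lost without eEF1A replicate 2 (0.0898) and STE23 without eEF1A replicate 3 (0.107), and both after median centring (0.0523 and 0.157). On the same arrays the a-factor genes MFA1 and MFA2 fell by 4.33 and 7.07 on the log2 scale.

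HO, the endonuclease that starts mating-type switching, fell most of all members. Laboratory strains usually carry an inactive ho allele, and the allele of this strain is not given in the sources used here. HO (chr4:46272-48032, minus strand) read 10.04, 10.02, 10.04 and 10.02 on the control arrays, against 9.76 and 9.38 on the eEF1A arrays. The controls were nearly identical and both eEF1A arrays lower, with a difference of -0.46 (standard error 0.09, adjusted p = 0.00516), or 1.38-fold lower. HO kept its call in all alternatives at an adjusted p under 0.05, as did AGA1 and PRM1, which makes 3 such members.

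Genes known to be induced by pheromone were then set apart from the other members. Of 19 such members 7 rose (36.8%; AGA1, PRM1, FIG1, PRM6, PRM3, SST2 and FIG2) and 3 fell (15.8%; GPA1, FUS3 and KAR4), beside 27.5% and 15.4% of all genes. Their median difference was 0.10, with 0.04 over all genes. Of the other 24 members 3 rose and 3 fell, with a median of 0.00, and the difference between these lists was not tested. A different cut of the list is the set of haploid-specific genes, which the a1 and α2 repressor shuts off in diploids. It holds 9 genes (GPA1, STE4, STE18, STE5, FUS3, HO, AXL1, RME1 and NEJ1), of which RME1 and NEJ1 are not members. Among these 9 genes 1 rose (11.1%) and 3 fell (33.3%), beside 27.5% and 15.4% of all genes. On every array all 9 read 7.91 or more, well above the background level. RME1, a repressor of meiosis, was the gene that rose (log2 difference 0.81, standard error 0.09, adjusted p = 3.21e-04). Of 6 markers of diploid cells and meiosis 3 rose (50.0%) and 1 fell (16.7%), beside the same 27.5% and 15.4%. Both group means of SPO13 and SPS4 were within the background. The mean of all 6 markers was 6.18 to 6.28 on the control arrays, against 6.39 and 6.21 on the eEF1A arrays. Of these IME2, a meiotic kinase, rose by 0.56 and SPS1, a sporulation kinase, fell by 0.82.

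The 2 eEF1A arrays did not agree equally well for all members. The gap between them was wider than the whole range of the controls for 26 members (60.5%), with 47.4% over all genes. Replicate 2 read higher than replicate 3 for 36 of 43 members, but this held for 82.2% of all genes too and the median of all S. cerevisiae probe sets was 9.12 on replicate 2, 9.03 on replicate 3 and 9.003 to 9.05 on the controls. The widest gap was in PRM2, followed by FIG1 and PRM1, whose replicate 2 values are given above.

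**Figure D4:**
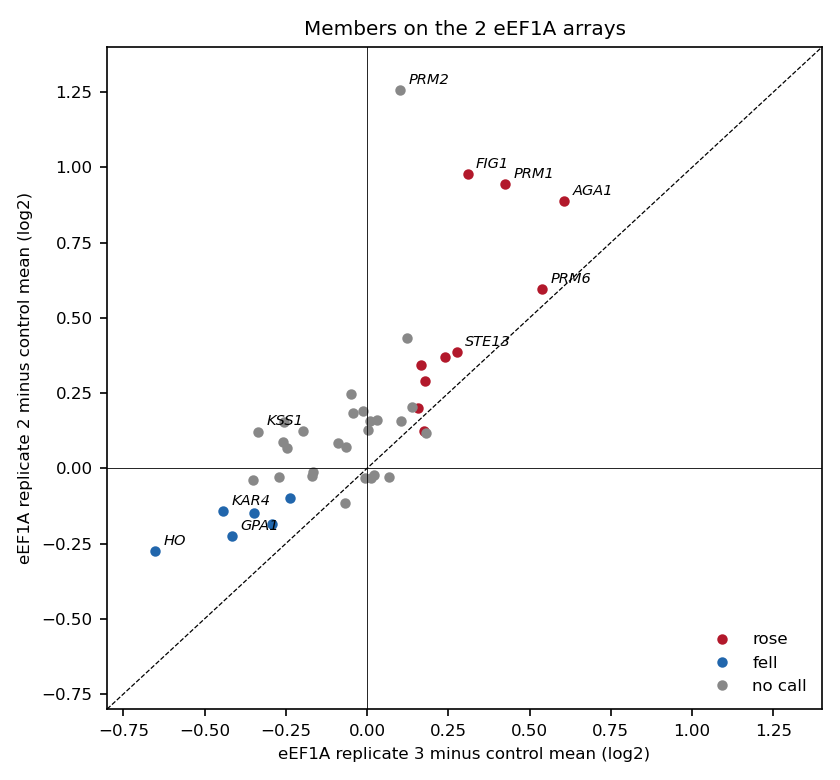
Difference of each of the 43 genes from its control mean (log2) on eEF1A replicate 3 (x axis) and eEF1A replicate 2 (y axis), coloured by call; the dashed line marks equal values. For 36 genes replicate 2 lies above the line, PRM2 farthest, and HO is lowest on both arrays.

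Of 48 other genes of the pathway that are no markers 9 rose (18.8%) and 8 fell (16.7%), beside the 27.5% and 15.4% of all genes. Among 10 further pheromone-induced genes 3 rose and 2 fell. AFR1, which acts on receptor signalling and the shape of the mating projection, rose by 1.15 (standard error 0.09, adjusted p = 6.96e-05), and PRM5, which also reports cell wall stress, by 1.13. PRM8 fell and was at least 4.76-fold lower, its eEF1A mean being within the background. Among 11 regulators of cell type and silencing, 3 rose, RME1 among them, and 1 fell. The one that fell was SIR2, the silencing deacetylase, by 0.72 (standard error 0.06), while SIR3 and SIR1, of the same silencing system, rose by 0.22 and 0.18. MCM1, which activates genes of both mating types, had a difference of -0.10 (adjusted p = 0.246).

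The further genes outside transcription are set beside all genes, of which 27.5% rose and 15.4% fell. Of 12 other polarity genes 0 rose and 2 fell (16.7%). Those that fell were RSR1, the GTPase of bud site selection (by 0.69, standard error 0.05), and SPA2, a polarisome protein (by 0.18). Of 4 genes of the filamentous growth branch 2 fell (50.0%), MSB2, its membrane sensor, by 0.64 and SHO1, the partner of that sensor, by 0.18. Of the 3 remaining dampers of signalling PTP3, a phosphatase of Fus3, fell by 0.53 (standard error 0.12) and PTP2, its partner phosphatase, rose by 0.27 (33.3% each). Of 8 other genes of karyogamy and fusion RVS161 rose by 0.35 and KAR2, the chaperone of the endoplasmic reticulum, by 0.16, and 0 fell.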

How the data were processed

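RNA of log phase cultures was hybridised to Affymetrix Yeast 2.0 arrays. The authors processed the scans by RMA in affylmGUI (no version of RMA is in the submitters' notes), and the deposited values are log2 expression of 10928 probe sets, 5810 of S. cerevisiae and 5028 of S. pombe. RMA equalises the arrays over the probes of both species, and the S. cerevisiae values alone can still differ between arrays in their median (9.003 to 9.12). Fold changes, B-statistics and p-values from the authors' own comparison were not used. Columns of other samples numbered 0. Names came from the chip annotation and were updated by locus tag (5713 matched) with RefSeq's R64 gene table, used for nothing else. The brightest probe set stood for a gene, 26 without a gene were left out, and 5726 genes remained.

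All 5810 probe sets were fitted in limma 3.58.1 (R 4.3.3) with the group as the only term, and moderated with a prior proportion of 0.01 (4 residual and 4.09 prior degrees of freedom). All p values and 95% intervals come from limma, with Benjamini-Hochberg adjustment over 5726 genes. The labels do not state separate cultures for the replicates, though the methods do. If they were not separate, the p values measure only technical spread. The number of arrays limits the precision. A group mean under 5.18 was set to that level to bound a fold. The procedure was tested on simulated data with added differences of 0.5, 1 and 2. It found 59 of 67, 66 of 67 and 66 of 66 of them. Smaller differences, which most members had, were not simulated.

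The 43 members and all gene lists were chosen with earlier results of these data known. Values on every array are given for members that passed with a difference of at least 0.5, and otherwise for the member of a role with the largest difference. Of other pathway genes, counts and up to 3 that passed with the largest change are given. The array values of FUS1 and KSS1, and MCM1, were added after their values were seen. There were 18 alternatives: the B-statistic, moderation over the whole chip, leaving out dim genes, 2 other scalings (a further quantile normalisation and median centring), limma-trend, robust moderation, weights for arrays, averaging the probe sets of a gene, dropping those with several targets, a block for the replicate number, only arrays numbered 2 and 3, and each array left out. Sequences were not used here.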

Additional observations from a re-analysis of the deposited data

How the results depend on the processing

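The values below are counts of members that rose or fell (10 and 6 as reported) and of the 48 other pathway genes (9 and 8). With a B-statistic above 1.5 in place of the adjusted p they were 1 and 0 for the members and 3 and 4 for the others. With array weights 3 members rose and 2 fell, and 5 other pathway genes fell, where 18.9% and 9.81% of all genes rose and fell. After further quantile normalisation 12 members and 15 others fell, and after median centring 10 and 15, where over all genes 26.0% and 25.3% fell. With each array left out in turn 5 to 12 members rose and 2 to 11 fell, 5 to 12 other pathway genes rose and 6 to 11 fell, and the median difference of the members, 0.02 as reported, ranged from -0.0056 (without eEF1A replicate 2) to 0.12 (without eEF1A replicate 3). In the same runs the median over all genes was -0.0073 and 0.09. Over all genes too, more fell without eEF1A replicate 2 and more rose without eEF1A replicate 3 than with all arrays. Each of these runs leaves 1 eEF1A array. With 1 control array left out, 22% to 26.1% of all genes rose and 12% to 12.7% fell, against 27.5% and 15.4% with all arrays. Without control replicate 3, 12 members rose where 26.1% of all genes did. Fewer arrays also leave fewer degrees of freedom.

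With the replicate number as a block 5 members rose and 1 fell, 4 other pathway genes rose, and 13.5% and 7.61% of all genes rose and fell. With the block GPA1 and STE13, among others, did not pass (adjusted p = 0.0662 and 0.121). The labels do not say that a number marks a shared batch, and the difference between replicates 2 and 3 in control cells correlated at -0.03 with that in eEF1A cells over S. cerevisiae probe sets. The numbers were therefore not taken as pairs. With only the arrays numbered 2 and 3 and no replicate block 4 members rose and 2 fell, and 4 other pathway genes rose. In that run 14.9% and 8.05% of all genes rose and fell. The remaining alternatives stayed within 1.5 times the reported counts. Of 773 single values of members under the alternatives 663 had the same outcome as reported, 86 lost a call, 24 gained one and 0 changed direction with a call. The 663 include values of members that had no call as reported and none under the alternative. Values near 5.18, those of PRM2, FIG1 and PRM6, are limited by signal over background.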

Other observations

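The bacteriophage Cre hybridisation controls, which are added to each sample and do not come from yeast, read 13.47 to 13.55 (3′ probe set) and 13.12 to 13.15 (5′ probe set) on the control arrays. On eEF1A replicate 3 they read 13.63 and 13.18, and on eEF1A replicate 2 only 11.81 and 11.38. The differences between the 3′ and 5′ control probe sets of the actin gene ACT1 ranged from 0.62 to 0.72 over the controls, with 0.72 for eEF1A replicate 2 and 0.76 for eEF1A replicate 3. For SPT15 the same differences were 1.02 to 1.202 on the control arrays, 0.98 on eEF1A replicate 2 and 0.93 on eEF1A replicate 3, both below the controls. For RIP1 they were -0.07 to 0.11 in controls, -0.14 on eEF1A replicate 2, which lay below them, and 0.09 on eEF1A replicate 3. The part of these values in the gaps between the eEF1A arrays was not tested.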
